A study of Homo sapiens with 4 samples.

Results

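The retinoic acid pathway genes described here were CRABP2, CRABP1, STRA6, DHRS3, CYP26B1, CYP26A1, RARA, RARB, RARG and RXRA, 10 of the 40188 genes with a value in the files. They were taken by symbol, after Ensembl identifiers had been matched to symbols, as carriers, receptors and metabolic enzymes of the pathway. CRABP2 was singled out because its level was high in the MSI1 library compared with the empty vector, so that difference is a description and not a test. The libraries were polyA-selected, stranded RNA-seq of HEK293, a human embryonic kidney cell line, and there were 4 groups of 1 library each. The 4 stable lines carried doxycycline-inducible MSI1, SRRM3, SRRM4 or an empty vector, and each received doxycycline at 1 µg/mL for 24 h. Thus the empty vector line had the drug as well, and all lines grew in medium with tetracycline-free serum. MSI1 is an RNA-binding protein of neural progenitors and photoreceptors, and SRRM3 and SRRM4 are related splicing factors of neurons that favour the inclusion of very short exons. The series addresses how these proteins regulate microexons of the retina. The sources used here do not say whether a line was 1 clone or a pool.

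Retinoic acid is made from retinol (vitamin A) in steps of oxidation, first to retinaldehyde and then to the acid. Inside the cell it is bound by the cellular retinoic acid-binding proteins CRABP1 and CRABP2, and in the nucleus it activates receptors of the RAR family, which bind DNA as pairs with an RXR. In the retina the same vitamin supplies the chromophore of the visual pigments, and retinoic acid patterns the developing eye and nervous system. Cytochromes of the CYP26 family break the acid down, and several genes of the pathway are themselves raised by retinoic acid in many cell types.

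Values are deposited cRPKM, a read density in which, as checked on the values, a count is scaled by the total of its library and by a length particular to the gene, and deposited read counts. The libraries had 60288244 to 63003121 counts. Ratios are of counts scaled to the library totals, with exact 95% intervals that cover counting error only. A pair of libraries was called beyond counting error where this interval left out 1. Calls by size used the log2 ratio of cRPKM after 0.5 was added to each value, among 12706 genes with a mean of at least 1 cRPKM, and took a log2 difference of at least 1, which is the 2-fold rule. The induced gene of each library compared was left out, which leaves 12705 genes over the empty vector and 12704 between induced libraries. With 1 library per group there was no replicate check and no test, and an effect of the induced gene cannot be told apart from a difference between lines or cultures. The induced genes followed the labels, each with its highest level in its own library: MSI1 was at 62.43 cRPKM in the MSI1 library against 8.38 in the empty vector, SRRM3 at 38.53 in the SRRM3 library against 0.49, and SRRM4 at 63.78 in the SRRM4 library against 0.39. In the other induced libraries MSI1 was at 10.56 cRPKM in SRRM3 and 8.19 in SRRM4. SRRM3 was at 0.61 in MSI1 and 1.39 in SRRM4, and SRRM4 was at 0.01 in MSI1 and 0.18 in SRRM3. All 6 HEK293 markers were above the floor of 3 counts in every library, with summed levels of 1350.09 to 1707.07 cRPKM. Most of this sum was VIM, at 909.49 to 1211.14 cRPKM, while PAX2 was at 0.73 to 1.25 and LHX1 at 3.71 to 4.75. Summed levels were 3.63 to 4.62 cRPKM for 5 fibroblast markers, 0.16 to 0.50 for 5 blood markers and at most 0.11 for 3 hepatocyte markers. For 5 neuron markers the sum was 3.20 cRPKM in MSI1, 4.42 in SRRM3, 5.42 in SRRM4 and 2.95 in the empty vector. Most of it was GAD1, at 2.69, 2.97 and 3.74 cRPKM in MSI1, SRRM3 and SRRM4 and at 2.63 in the empty vector. SNAP25 and STMN2 were above the floor only in the SRRM3 and SRRM4 libraries. The part of these markers in the results below was not tested.

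The carriers CRABP2 and CRABP1 are shown with the DNA upstream of their starts because both were highest in the MSI1 library and next highest in SRRM3. The sequences run from 250 to 51 bases before the RefSeq start (GRCh38.p14, 5′ to 3′ on the gene's strand), and capitals mark any retinoid receptor hexamer on either strand. The forms searched were the consensus AGGTCA, then AGTTCA as a known variant of it, likewise the form that reads GGGTCA and last the form that reads GGTTCA.
CRABP2 (chr1:156705835-156706034, minus strand): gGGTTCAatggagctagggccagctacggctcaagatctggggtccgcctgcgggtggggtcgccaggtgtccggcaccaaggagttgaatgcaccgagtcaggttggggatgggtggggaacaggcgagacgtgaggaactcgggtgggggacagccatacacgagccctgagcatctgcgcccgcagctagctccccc
CRABP1 (chr15:78340103-78340302, plus strand): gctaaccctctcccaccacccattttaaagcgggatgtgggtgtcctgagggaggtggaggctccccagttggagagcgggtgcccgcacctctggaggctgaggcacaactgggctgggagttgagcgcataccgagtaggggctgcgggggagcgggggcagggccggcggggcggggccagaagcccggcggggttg
In the 250 bases before the start, CRABP2 held 1 such hexamer, GGTTCA with its first base at -249, and CRABP1 held none. The hexamer was in 33.8% of 35116 RefSeq promoter windows of the same length, so its presence in 1 window describes little.

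A direct repeat of the hexamer with 5 bases between the copies, an arrangement known for RAR and RXR pairs, was rarer. It was in 0.074% of the 35116 windows, that is in 26 of them. Among the 23 windows of the 10 pathway genes it was in 2, a window of the receptor gene RARB and a window of the CYP26A1 enzyme gene, both of which are classical targets of retinoic acid. These sites are shown in the direction in which the repeat reads, with capitals on the hexamers.
RARB (chr3:25428204-25428232, plus strand): gggtagGGTTCAccgaaAGTTCActcgca
CYP26A1 (chr10:93073797-93073825, minus strand): acaattAGTTCAcccaaAGTTCAtcttta
The RARB repeat spans bases -53 to -37 from a RefSeq start of the gene. The CYP26A1 repeat spans bases -90 to -74 from a RefSeq start of its gene and reads on the strand opposite to the gene. Both repeats lie within the GENCODE 29 bounds of their genes, and whether they fall in exons is not reported here. Repeats with 2 bases or 1 base between the copies were searched as well. They were in 0.0313% and 0.0968% of the 35116 windows, and in none of the 23 windows of the pathway genes. A match of letters is a description and not evidence of binding.

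CRABP2 (ENSG00000143320, chromosome 1, 156699606 to 156705816, minus strand), which carries retinoic acid to its receptors in the nucleus, was highest in the MSI1 library. It was at 19.89 cRPKM in MSI1 (1182 counts), 13.61 in SRRM3 (807 counts), 6.74 in SRRM4 (383 counts) and 7.11 in the empty vector (416 counts). The MSI1 level stood above all others, the SRRM3 level lay between, and SRRM4 and the empty vector were close together. The count ratio of MSI1 over the empty vector was 2.80 (2.50 to 3.14). On the log2 scale the difference was 1.42, which was position 15 from the highest of 12705 genes. In bulk libraries, a larger share of cells with the transcript and more of its RNA per cell cannot be told apart.

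The SRRM3 library held more CRABP2 than the empty vector, with a count ratio of 1.91 (1.70 to 2.16). Its log2 difference of 0.89 fell short of the 2-fold rule and was position 92 from the highest of 12705 genes. SRRM4 over the empty vector gave 0.948 (0.823 to 1.09), so this pair did not differ beyond counting error. SRRM4 over SRRM3, the paralogous splicing factors, gave 0.495 (0.437 to 0.56) and a log2 difference of -0.96, position 34 from the lowest of 12704 genes. MSI1 over SRRM3 gave 1.46 (1.34 to 1.60), and MSI1 over SRRM4 gave 2.95 (2.63 to 3.32). The order of levels was therefore MSI1, SRRM3, then the empty vector and SRRM4 without a resolved order between them.

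CRABP1 (ENSG00000166426, chromosome 15, 78340324 to 78348230, plus strand), the second cellular carrier, was lower but likewise highest in MSI1 and next in SRRM3. It was at 4.68 cRPKM in MSI1 (213 counts), 3.14 in SRRM3 (143 counts), 1.81 in SRRM4 (79 counts) and 1.76 in the empty vector (79 counts). As for CRABP2, SRRM4 and the empty vector lay side by side below the other libraries. MSI1 over the empty vector gave a count ratio of 2.66 (2.04 to 3.48) and a log2 difference of 1.20, position 28 from the highest of 12705 genes. SRRM3 over the empty vector gave 1.79 (1.35 to 2.38; log2 0.69), and SRRM4 over the empty vector gave 1.03 (0.744 to 1.42). SRRM4 over SRRM3 gave 0.576 (0.432 to 0.764; log2 -0.66), and MSI1 over SRRM3 gave 1.49 (1.20 to 1.85).

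The ratio of the carriers to each other moved little. Per length, CRABP2 was 4.25 times CRABP1 in MSI1, 4.33 times in SRRM3, 3.72 times in SRRM4 and 4.04 times in the empty vector. The count ratios of the carriers within a library were 5.55 (4.79 to 6.45) in MSI1, 5.64 (4.72 to 6.79) in SRRM3, 4.85 (3.80 to 6.26) in SRRM4 and 5.27 (4.13 to 6.79) in the empty vector, and all 4 intervals overlapped. The genes lie on different chromosomes. Their coding sequences (GENCODE 29) have 414 bases in CRABP1 and 417 in CRABP2 and are identical at 309 of 419 aligned positions, or 73.7%. The longest stretch they share without a mismatch is 12 bases in the coding sequence, at its very start in both genes.
Shared start of the CRABP1 and CRABP2 coding sequences: ATGCCCAACTTC
Over the whole transcripts the longest shared stretch was 20 bases. Whether any read was counted for the wrong carrier was not tested.

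**Figure D1:**
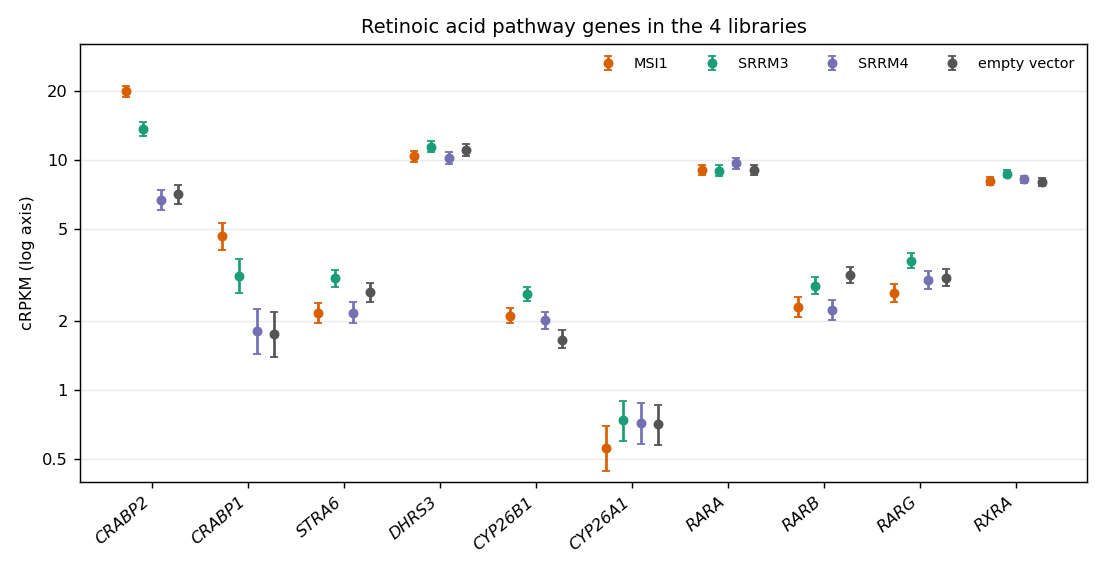
Levels of the 10 pathway genes in cRPKM on a log axis, with 1 point per library in the order MSI1, SRRM3, SRRM4 and empty vector, and bars for the exact 95% counting interval. CRABP2 (19.89 in MSI1) and CRABP1 (4.68 in MSI1) are both highest in MSI1 and next in SRRM3, while RARA and RXRA are nearly level.

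Genes within 100000 bases of the carriers were read for comparison. NES, the neural progenitor filament nestin, lies 22209 bases from CRABP2 and was at 3.50 cRPKM in MSI1, 4.11 in SRRM3, 3.11 in SRRM4 and 3.14 in the empty vector. ISG20L2, an exonuclease gene at 16075 bases, was at 26.16, 23.83 and 27.22 cRPKM in MSI1, SRRM3 and SRRM4 and at 27.28 in the empty vector. HAPLN2, at 73881 bases, was below 1 cRPKM throughout, with 22 counts in MSI1, 15 in SRRM3, 7 in SRRM4 and 5 in the empty vector. Near CRABP1, WDR61 was at 71.69 to 75.08 cRPKM and IREB2, an iron-responsive RNA-binding protein, at 41.30 to 44.27 cRPKM over the 4 libraries. The expressed neighbours with at least 1 cRPKM did not have the order of libraries seen in the carriers.

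STRA6 (ENSG00000137868, chromosome 15, 74179466 to 74212267, minus strand), the membrane receptor that takes up retinol from its blood carrier, was highest in the SRRM3 library. It was at 2.16 cRPKM in MSI1 (375 counts), 3.06 in SRRM3 (529 counts), 2.17 in SRRM4 (360 counts) and 2.66 in the empty vector (454 counts). MSI1 and SRRM4 were level with each other and below the empty vector. The count ratio over the empty vector was 0.814 (0.708 to 0.935) for MSI1, 1.15 (1.01 to 1.31) for SRRM3 and 0.817 (0.709 to 0.94) for SRRM4. SRRM4 over SRRM3 gave 0.71 (0.619 to 0.813).

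DHRS3 (ENSG00000162496, chromosome 1, 12567910 to 12617731, minus strand), which reduces retinaldehyde back to retinol and so lowers the supply of retinoic acid, varied little. Its levels were 10.38 cRPKM in MSI1 (1094 counts), 11.43 in SRRM3 (1203 counts), 10.21 in SRRM4 (1030 counts) and 11.02 in the empty vector (1145 counts). No ratio to the empty vector left out 1, with 0.942 (0.866 to 1.02) for MSI1, 1.04 (0.956 to 1.13) for SRRM3 and 0.926 (0.851 to 1.01) for SRRM4. SRRM4 over SRRM3 gave 0.893 (0.821 to 0.971).

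CYP26B1 (ENSG00000003137, chromosome 2, 72129238 to 72148038, minus strand), an enzyme that breaks down retinoic acid, was higher in each induced library than in the empty vector. It was at 2.11 cRPKM in MSI1 (623 counts), 2.61 in SRRM3 (770 counts), 2.01 in SRRM4 (567 counts) and 1.66 in the empty vector (482 counts). SRRM3 stood above MSI1 and SRRM4, which did not differ beyond counting error. The ratio over the empty vector was 1.27 (1.13 to 1.44) for MSI1, 1.58 (1.41 to 1.77; log2 0.53) for SRRM3 and 1.21 (1.07 to 1.37) for SRRM4, and none met the 2-fold rule. SRRM4 over SRRM3 gave 0.768 (0.688 to 0.857).

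CYP26A1 (ENSG00000095596, chromosome 10, 93073475 to 93077890, plus strand), the related enzyme with the repeat printed above, was the lowest of the 10 genes. It was at 0.56 cRPKM in MSI1 (78 counts), 0.74 in SRRM3 (102 counts), 0.72 in SRRM4 (95 counts) and 0.71 in the empty vector (97 counts). Its mean of 0.682 cRPKM kept it out of the 2-fold rule, although every count was well above the floor of 3 counts. No ratio to the empty vector left out 1: MSI1 gave 0.792 (0.58 to 1.08), SRRM3 1.04 (0.778 to 1.39) and SRRM4 1.01 (0.752 to 1.35). The interval of MSI1 over the empty vector thus leaves room for a lower level, which these counts did not resolve.

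RARA (ENSG00000131759, chromosome 17, 40309192 to 40357643, plus strand), the widely expressed retinoic acid receptor, was level across the libraries. It was at 9.06 cRPKM in MSI1 (1334 counts), 9.01 in SRRM3 (1325 counts), 9.70 in SRRM4 (1367 counts) and 9.06 in the empty vector (1314 counts). The ratios over the empty vector were 1.00 (0.926 to 1.08) for MSI1, 0.995 (0.922 to 1.08) for SRRM3 and 1.07 (0.992 to 1.16) for SRRM4. RARA-AS1, an antisense gene that overlaps RARA, had 131 counts in MSI1, 81 in SRRM3, 85 in SRRM4 and 77 in the empty vector, and the sources used here do not say whether the counting used strand.

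RARB (ENSG00000077092, chromosome 3, 25174332 to 25597932, plus strand), the receptor gene with the repeat printed above, was highest in the empty vector. It was at 2.30 cRPKM in MSI1 (440 counts), 2.84 in SRRM3 (542 counts), 2.23 in SRRM4 (408 counts) and 3.16 in the empty vector (596 counts). MSI1 and SRRM4 lay below the empty vector, with ratios of 0.727 (0.642 to 0.824; log2 -0.39) for MSI1 and 0.705 (0.62 to 0.801; log2 -0.42) for SRRM4. SRRM3 over the empty vector gave 0.898 (0.798 to 1.01), which does not leave out 1. RARB is uncertain as measured, because TOP2B overlaps it on the opposite strand with 15591 to 16513 counts per library. Reads of one gene could have been counted for the other if strand was not used. How many bases of exon the genes share was not measured, so the size of this uncertainty is not known. TOP2B itself was at 47.71 cRPKM in MSI1, 48.20 in SRRM3, 48.43 in SRRM4 and 49.81 in the empty vector.

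RARG (ENSG00000172819, chromosome 12, 53210567 to 53232980, minus strand), the third receptor of the family, was at 2.65 cRPKM in MSI1 (481 counts), 3.65 in SRRM3 (661 counts), 3.01 in SRRM4 (523 counts) and 3.08 in the empty vector (551 counts). SRRM3 was the highest library and MSI1 the lowest. The ratio over the empty vector was 0.86 (0.76 to 0.974) for MSI1, 1.18 (1.06 to 1.33) for SRRM3 and 0.977 (0.866 to 1.10) for SRRM4. SRRM4 over SRRM3 gave 0.825 (0.735 to 0.927).

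RXRA (ENSG00000186350, chromosome 9, 134317098 to 134440585, plus strand), the partner of the RAR proteins on DNA, had the most counts of the 10 genes. It was at 8.11 cRPKM in MSI1 (2920 counts), 8.74 in SRRM3 (3138 counts), 8.26 in SRRM4 (2845 counts) and 8.04 in the empty vector (2850 counts). Only SRRM3 over the empty vector left out 1, at 1.09 (1.03 to 1.14), against 1.01 (0.959 to 1.06) for MSI1 and 1.03 (0.976 to 1.08) for SRRM4.

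**Figure D2:**
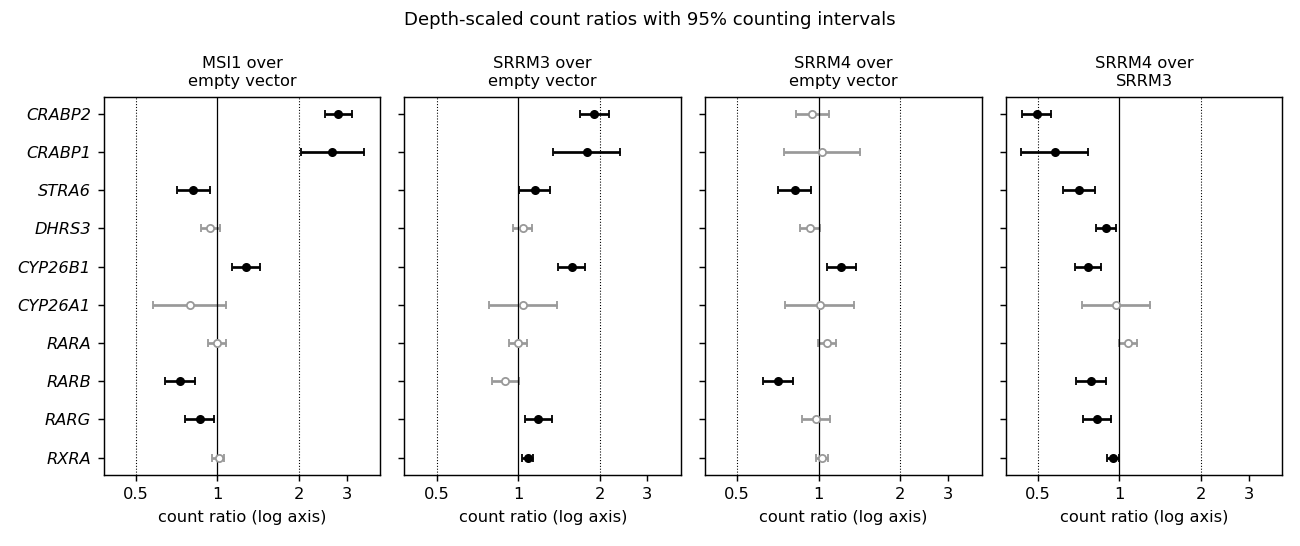
Depth-scaled count ratios of the 10 genes for MSI1, SRRM3 and SRRM4 over the empty vector and for SRRM4 over SRRM3, on a log axis with exact 95% counting intervals; filled points have an interval that leaves out 1, and dotted lines mark ratios of 0.5 and 2. CRABP2 and CRABP1 lie beyond 2 in the MSI1 panel alone, and in the SRRM4 over SRRM3 panel CRABP2 lies at 0.495.

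All 10 genes were above the floor of 3 counts in all 4 libraries, and the lowest count was 78. The filter on the mean level was passed by 9 of the 10, each with at least 1.66 cRPKM in every library, and CYP26A1 was left out. Over the libraries the highest level was 2.95 times the lowest for CRABP2, 2.66 times for CRABP1, 1.57 times for CYP26B1, 1.42 times for RARB and STRA6, 1.38 times for RARG and 1.32 times for CYP26A1. It was 1.12 times for DHRS3, 1.09 times for RXRA and 1.08 times for RARA. The carriers thus spread most and RARA and RXRA least.

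In MSI1 over the empty vector, 2 of the 9 genes that passed the filter were higher by the 2-fold rule, CRABP1 and CRABP2, and 0 were lower. Of all 12705 genes, 0.669% passed the rule in either direction, 0.299% higher and 0.37% lower. CRABP2 was chosen on this contrast, so nothing is read from the share. With a pseudocount of 2, the log2 difference of CRABP1 was 0.83, short of the rule, and at a filter of 5 cRPKM CRABP1 was left out. Beyond counting error 3 of the 9 were higher (CRABP1, CRABP2 and CYP26B1) and 3 lower (STRA6, RARB and RARG), against 32.3% of all genes higher and 27.6% lower. The median log2 difference was 0.00 over the 9 genes and 0.02 over all genes tested.

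In SRRM3 over the empty vector, 0 of the 9 genes passed the 2-fold rule, against 0.882% of all 12705 genes (0.582% higher and 0.299% lower). Beyond counting error 6 were higher (CRABP1, CRABP2, CYP26B1, STRA6, RARG and RXRA) and 0 were lower, against 29.6% of all genes higher and 28.1% lower. The median log2 difference was 0.17 over the 9 genes and 0.00 over all genes. Of these 6 genes, CRABP1 and CRABP2 also passed a 1.5-fold rule, which 2.62% of all genes passed.

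In SRRM4 over the empty vector, 0 of the 9 genes passed the 2-fold rule, against 0.771% of all 12705 genes (0.551% higher and 0.22% lower). CYP26B1 was higher beyond counting error, and STRA6 and RARB were lower, that is 1 and 2 of the 9, against 23.2% of all genes higher and 25.1% lower. The median log2 difference was -0.03 over the 9 genes and 0.00 over all genes. These 3 comparisons share the empty vector library, so their values stand side by side and are not independent of each other.

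In SRRM4 over SRRM3, 0 of the 9 genes passed the 2-fold rule, against 0.512% of all 12704 genes (0.276% higher and 0.236% lower). CRABP2 came closest at a log2 difference of -0.96, and with a pseudocount of 0.1 it passed the rule as lower. Beyond counting error 8 of the 9 were lower in SRRM4, all but RARA, and 0 were higher, against 30.5% of all genes lower and 27.1% higher. The median log2 difference was -0.29 over the 9 genes and -0.01 over all genes. RARA gave a count ratio of 1.08 (0.997 to 1.16). This comparison shares the SRRM3 library with SRRM3 over the empty vector, so the 2 sets of values are not independent of each other.

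**Figure D3:**
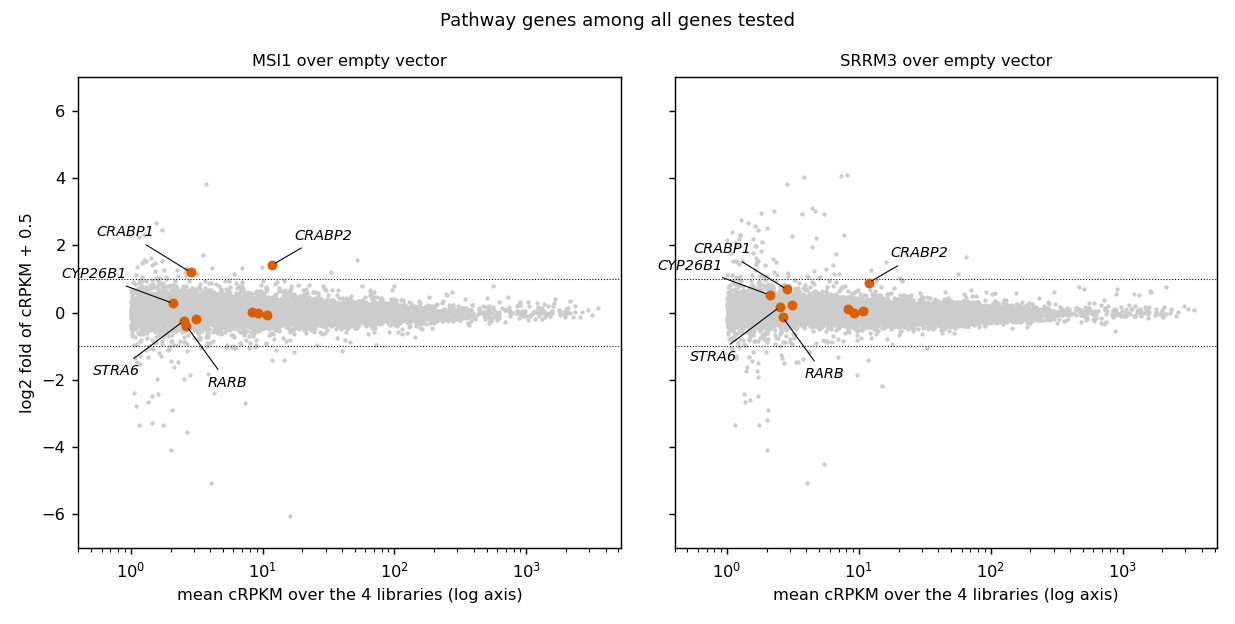
Log2 difference of cRPKM + 0.5 against mean cRPKM (log axis) for all genes tested in MSI1 over the empty vector and SRRM3 over the empty vector, with the 9 pathway genes that passed the filter in orange and dotted lines at the 2-fold rule. CRABP2 lies at 1.42 in the MSI1 panel and at 0.89 in the SRRM3 panel, and the receptors lie within the cloud of other genes.

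The genes most like CRABP2 were found by the distance between profiles over the 4 libraries, taken as log2(cRPKM + 0.5) less its mean, among 11603 protein-coding genes with a mean of at least 1 cRPKM. CRABP1 was the closest of them, at a distance of 0.276, against a median distance of 1.248. TNNT1, a slow muscle troponin, came next at 0.304, with 16.34 cRPKM in MSI1, 10.04 in SRRM3, 6.75 in SRRM4 and 6.08 in the empty vector. PLPP2, a lipid phosphatase, was at 7.27, 3.96 and 2.76 cRPKM in MSI1, SRRM3 and SRRM4 and at 2.60 in the empty vector, a distance of 0.373. KLF2, a zinc finger transcription factor, was at 3.39, 1.62 and 0.99 cRPKM in MSI1, SRRM3 and SRRM4 and at 1.12 in the empty vector, a distance of 0.393. NGEF, PRRX2, EMP3 and FNDC1 followed at 0.408 to 0.504. A distance over 4 libraries describes these libraries and is not a sign of shared function or control. Of the other pathway genes that passed the filter CYP26B1 was nearest, at position 1287, and RARB farthest, at position 9672 and a distance of 1.381. CYP26A1, which had no position because it did not pass the filter, was at a distance of 1.385.

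**Figure D4:**
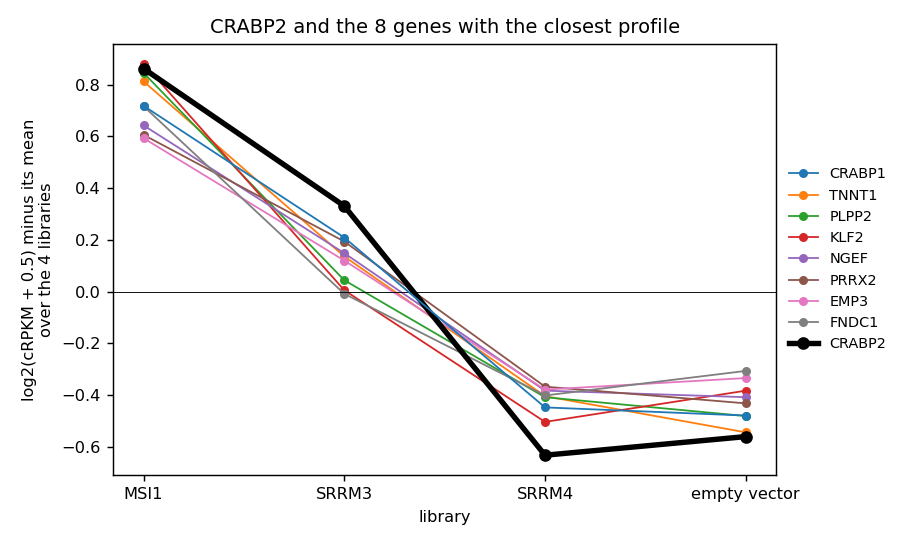
Profiles of CRABP2 and of the 8 protein-coding genes closest to it, as log2(cRPKM + 0.5) less the mean over the 4 libraries, with the libraries on the horizontal axis. All 9 lines are highest in MSI1 and lie below 0 in SRRM4 and in the empty vector, and CRABP1 at a distance of 0.276 runs closest to CRABP2.

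A further 56 genes of retinoid biology, in 7 lists, were read in the same way, and 30 of them passed the filter. Above the floor were 36 in all 4 libraries and 6 in some, and 14 were at or below it in all, with 5 at 0 throughout. By the 2-fold rule 0 of the 30 were called in MSI1, SRRM3 or SRRM4 over the empty vector or in SRRM4 over SRRM3. Over all genes 0.669%, 0.882%, 0.771% and 0.512% passed it in these comparisons, less than 1 gene in 30, so nothing is read from the absence. Beyond counting error 13 were higher and 8 lower in MSI1, 19 higher and 3 lower in SRRM3, and 10 higher and 3 lower in SRRM4, each over the empty vector. Over all genes tested, 32.3% were higher and 27.6% lower in MSI1, 29.6% higher and 28.1% lower in SRRM3, and 23.2% higher and 25.1% lower in SRRM4. In SRRM4 over SRRM3, 6 of the 30 were higher and 16 lower, against 27.1% of all genes higher and 30.5% lower. This comparison shares the SRRM3 library with SRRM3 over the empty vector. The median log2 differences over the empty vector were 0.04 in MSI1, 0.12 in SRRM3 and 0.02 in SRRM4.

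FABP5, a fatty acid carrier that also binds retinoic acid, was the most abundant of the listed binding proteins at 80.80 to 88.11 cRPKM over the libraries. RBP7, a retinol-binding protein, was at 47.56 cRPKM in MSI1, 44.88 in SRRM3, 32.86 in SRRM4 and 34.90 in the empty vector, with ratios over the empty vector of 1.36 (1.27 to 1.47) for MSI1 and 1.29 (1.19 to 1.38) for SRRM3. RBP4, the blood carrier of retinol, was at 1.11 to 1.60 cRPKM, RBP5 was at 0.22 to 0.46 cRPKM, and LRAT, which esterifies retinol, and RBP2 were at 0 in all libraries.

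Of 10 enzymes of retinaldehyde and retinoic acid synthesis, 7 passed the filter. ALDH1A1 was at 0.01 to 0.03 cRPKM and BCO1, which cleaves carotene, at 0.01 to 0.07 cRPKM over the libraries. ALDH1A2, which oxidizes retinaldehyde to retinoic acid, was at 36.10 cRPKM in MSI1, 31.90 in SRRM3, 29.02 in SRRM4 and 29.14 in the empty vector. Its ratio over the empty vector was 1.24 (1.20 to 1.28) for MSI1, 1.09 (1.06 to 1.13) for SRRM3 and 0.996 (0.963 to 1.03) for SRRM4. ALDH1A3, a related enzyme named after its values were seen, was at 5.97 cRPKM in MSI1, 6.76 in SRRM3, 4.14 in SRRM4 and 4.62 in the empty vector. SRRM4 over SRRM3 gave 0.613 (0.565 to 0.664) for ALDH1A3. RDH10, likewise named after its values were seen, was lower in MSI1 and SRRM3 than in the empty vector. Its ratios over the empty vector were 0.853 (0.799 to 0.91) for MSI1, 0.84 (0.787 to 0.897) for SRRM3 and 0.977 (0.917 to 1.04) for SRRM4. RDH11, a retinol dehydrogenase, was at 39.33 to 45.17 cRPKM and RDH14 at 16.52 to 18.46 cRPKM over the libraries. DHRS4 was at 6.85 to 8.93 cRPKM, but this rests on 38 to 51 counts and a length of 92 bases, 3.99% of its annotated exons. DHRS9, also named after its values were seen, had 94 counts in MSI1, 20 in SRRM3, 14 in SRRM4 and 20 in the empty vector. MSI1 over the empty vector gave 4.63 (2.84 to 7.93) for DHRS9, which did not pass the filter. CYP26C1, the third CYP26 enzyme, was at or below the floor in all 4 libraries.

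Other receptors and receptor cofactors differed by small ratios. RXRB, a second RXR, was at 27.35 cRPKM in MSI1, 24.34 in SRRM3, 24.49 in SRRM4 and 21.27 in the empty vector, and was higher in each induced library, by ratios of 1.29 (1.23 to 1.34), 1.14 (1.10 to 1.20) and 1.15 (1.10 to 1.20) for MSI1, SRRM3 and SRRM4. PPARD, a nuclear receptor for fatty acids, was at 9.11 to 11.04 cRPKM, and the receptors RXRG and RORB were at or below 0.10 cRPKM. All 11 cofactors passed the filter, 3 of them higher and 4 lower beyond counting error in MSI1 over the empty vector, 8 higher and 2 lower in SRRM3 and 4 higher and 1 lower in SRRM4. The shares of all genes were 32.3% higher and 27.6% lower in MSI1, 29.6% and 28.1% in SRRM3, and 23.2% and 25.1% in SRRM4. HDAC3, a histone deacetylase of the corepressor complex, was at 50.99 to 51.74 cRPKM, and NCOR1, a corepressor, was at 28.11 cRPKM in MSI1, 31.43 in SRRM3, 29.39 in SRRM4 and 27.80 in the empty vector. MED1, a subunit of the Mediator complex, was at 27.65 to 30.66 cRPKM, and the histone acetyltransferase EP300 was at 25.27 to 27.17 cRPKM.

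Among 15 genes known as targets of retinoic acid in other cells, 6 passed the filter. HOXA4, a homeobox gene, was at 8.90 cRPKM in MSI1, 12.26 in SRRM3, 9.61 in SRRM4 and 8.85 in the empty vector, and SRRM3 over the empty vector gave 1.38 (1.27 to 1.51). HOXD4, another homeobox gene, was at 7.32, 8.36 and 7.18 cRPKM in MSI1, SRRM3 and SRRM4 and at 6.20 in the empty vector. MEIS2, a developmental transcription factor, was at 5.75, 8.15 and 7.05 cRPKM in MSI1, SRRM3 and SRRM4 and at 7.46 in the empty vector, and MSI1 over the empty vector gave 0.77 (0.723 to 0.821). HOXB4 was at 4.85, 4.57 and 4.38 cRPKM in MSI1, SRRM3 and SRRM4 and at 3.91 in the empty vector. In all, 2 targets were higher and 3 lower beyond counting error in MSI1, 4 higher and 0 lower in SRRM3, and 2 higher and 1 lower in SRRM4, each over the empty vector and of 6 genes. Beside them stand 32.3% of all genes higher and 27.6% lower in MSI1, 29.6% and 28.1% in SRRM3, and 23.2% and 25.1% in SRRM4. HOXB1, CDX1, RARRES2, PLAAT4 and STRA8 were at or below the floor in all libraries. Of 8 genes of the visual cycle of the eye only the retinol dehydrogenase RDH5 passed the filter, at 1.51 cRPKM in MSI1, 0.87 in SRRM3, 1.24 in SRRM4 and 0.83 in the empty vector, while RLBP1, RBP3 and RGR were at 0.

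**Figure D5:**
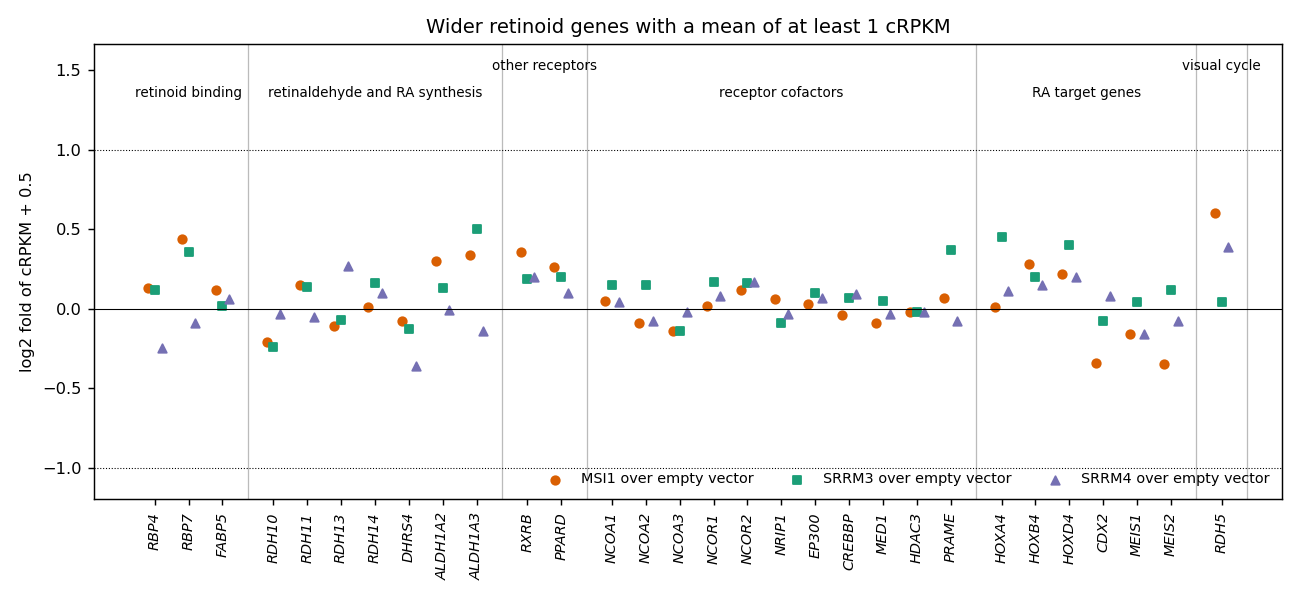
Log2 difference of cRPKM + 0.5 over the empty vector for the 30 further retinoid genes with a mean of at least 1 cRPKM, by list, with circles for MSI1, squares for SRRM3 and triangles for SRRM4 and dotted lines at the 2-fold rule. No point lies beyond a dotted line, and RDH5 in MSI1, at 0.60, lies farthest from 0.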

How the data were processed

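Each library has a deposited file with an Ensembl gene identifier, a read count in whole numbers and an RPKM-type value that the authors named cRPKM. Per the submitters' processing notes the build was GRCh38; of the aligner, counter, annotation release and use of strand the sources used here say nothing. Over 3781 well-covered genes the count per cRPKM followed the library totals within 0.047%. Of 41614 genes, 1426 without a value were left out, and 39633 of the other 40188 had a symbol; coordinates are from GENCODE 29 and promoters from RefSeq GRCh38.p14.

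The log2 ratio used a pseudocount of 0.5 cRPKM, which understates differences of low genes. Intervals are exact conditional (Clopper-Pearson) and cover counting error only, since reads are not independent molecules; 3 counts are 0.0476 to 0.0498 CPM. The members and lists were chosen with earlier results of these data known. Some genes of these lists are not reported here. Named genes were the pathway genes, list genes past the rule, up to 4 of the highest per list and the 8 closest profiles. Alternatives were pseudocounts of 0.1 and 2, other filters, median centring, CPM with edgeR 4.0.16 TMM or DESeq2 1.42.0 size factors, a 1.5-fold rule, the interval and other control libraries; protein-coding genes alone were added after seeing the data. The procedure was run on simulated counts that held counting error alone, which says nothing of variation between lines or cultures. Python 3.11.15 and R 4.3.3 were used.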

Additional observations from a re-analysis of the deposited data

Results flagged for a closer look

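STRA6, the retinol uptake receptor, lay on opposite sides of the empty vector in the induced libraries: the count ratio over the empty vector was 0.814 for MSI1, 1.15 for SRRM3 and 0.817 for SRRM4. RARG lay below the empty vector in MSI1, at 0.86, and above it in SRRM3, at 1.18. Each of these intervals left out 1. Over all genes tested, 32.3% were higher and 27.6% lower beyond counting error in MSI1. The shares were 29.6% and 28.1% in SRRM3, and 23.2% and 25.1% in SRRM4. How many of all genes had calls in opposite directions was not counted, so nothing is read from STRA6 and RARG. With 1 library per group the difference between the effects was not tested, and the ratios of both genes share the empty vector.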

How the results depend on the processing

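The 2 pathway genes past the rule in MSI1 over the empty vector became 1 (CRABP2) with a pseudocount of 2 or a mean of at least 5 cRPKM, and 0 with SRRM3 in place of the empty vector. For SRRM3 over the empty vector, 0 became 2 with the 1.5-fold rule. For SRRM4, 0 became 2 lower with MSI1 in place of the empty vector. For SRRM4 over SRRM3, 0 became 1 with a pseudocount of 0.1 and 2 with the 1.5-fold rule. CRABP2's log2 difference of 1.49 between MSI1 and SRRM4 was 1.32 with a pseudocount of 2; over the empty vector MSI1 gave 1.26 to 1.47. Of 195 other values of the pathway genes, 194 moved by less than their counting error.

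Over all genes, the count for MSI1 over the empty vector was 85, and became 130 with a pseudocount of 0.1, 33 with 2, 243 with no filter, 19 at 5 cRPKM, 50 with TMM, 50 with DESeq2 factors, 367 at 1.5-fold, 45 with the interval and 36 in protein-coding genes. For SRRM3 the count was 112, and became 50 with a pseudocount of 2, 277 with no filter, 22 at 5 cRPKM, 73 with TMM (58 higher and 15 lower, against 74 and 38), 73 with DESeq2 factors, 333 at 1.5-fold, 66 with the interval and 59 in protein-coding genes. For SRRM4 it was 98, and became 43, 238, 15, 52 with TMM (49 higher and 3 lower, against 70 and 28), 52, 233, 53 and 45 in the same order. For SRRM4 over SRRM3 it was 65, and became 28, 215, 14, 25, 26, 278, 28 and 25. The TMM and DESeq2 settings also replaced cRPKM by CPM, with 0.5 still added, so their counts do not show the library factors alone. The TMM factors were 0.990 to 1.015. The cause was not tested.

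Each group has 1 library, so depth bounds counting error only, and no alternative measures variation between cultures. No paired analysis was possible because each group has 1 library.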

Other observations

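MSI1 binds RNA at UAG. Over the 3′ UTR of the GENCODE 29 transcript with the longest coding sequence, UAG occurred 2.37 times per 100 bases in CRABP1 (6 in 253 bases), 1.72 in CRABP2 (7 in 408 bases), 1.52 in RARB (20 in 1316 bases) and 1.19 in CYP26A1 (7 in 586 bases). It was 0.937 in CYP26B1 (28 in 2989 bases), 0.814 in RARG (9 in 1106 bases) and 0.465 in DHRS3 (2 in 430 bases). RXRA had 0.247 (1 in 405 bases), and RARA (569 bases) and STRA6 (105 bases) had 0. A short 3′ UTR offers few places for UAG. The 0 of STRA6 thus says little, and the density of CRABP1 rests on only 6 in 253 bases. The median of 11228 genes was 1.11. These densities describe sequence alone, over 1 transcript per gene, and binding was not measured. The transcript chosen may also differ from the one expressed. For RXRA the length that scaled the counts was 5712 bases, so a 3′ UTR of 405 bases may not be the one measured. Its place below the median is therefore uncertain. By these densities 4 of the 10 genes were above the median of 1.11 and 6 below. Of the 4, MSI1 over the empty vector gave count ratios of 2.66 for CRABP1, 2.80 for CRABP2, 0.727 for RARB and 0.792 for CYP26A1, whose interval did not leave out 1. Of the 6, it gave 1.27 for CYP26B1, 0.86 for RARG, 0.942 for DHRS3, 1.01 for RXRA, 1.00 for RARA and 0.814 for STRA6. ACSBG1, an acyl-CoA synthetase gene 94636 bases from CRABP1, was low throughout, with 131 counts in MSI1, 30 in SRRM3, 44 in SRRM4 and 68 in the empty vector.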
